A study of Mus musculus with 20 samples.

Results

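The 10 genes described here encode surface and secreted proteins by which resting, or homeostatic, microglia are recognised, and their RNA was followed across 6 conditions of genotype and sort. The genes were taken by symbol (Tmem119, Cx3cr1, Siglech, Selplg, Fcrls, Olfml3, Sparc, Slc2a5, Gpr34 and Adgrg1), and all 10 were found among the 21315 gene symbols measured and passed the filter on low values in every comparison. RNA-seq was done on bulk microglia sorted as CD45-mid, CD11b+ cells from papain-digested brains of C57BL/6 mice of both sexes at 9 months of age, in 20 libraries. In 6 libraries the cells were further sorted as C3aR+ on the Td-tomato signal of a C3ar1 reporter allele, carried by these WT (n = 3) and APP-KI (n = 3) mice alike. The other 14 libraries held microglia not selected on C3aR, from WT (n = 3), APP-KI (n = 3), C3aRKO (n = 3) and APP-KI;C3aRKO mice (n = 5, below the double mutant). APP-KI mice carry an App gene whose amyloid-beta sequence was humanised and holds the Swedish, Iberian and Arctic mutations, and form amyloid plaques, and C3aRKO mice lack the complement C3a receptor gene C3ar1 in all cells. The labels do not say that each library came from its own mouse, so p-values measure only the spread between these libraries, which may be partly technical.

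Microglia are the resident macrophages of the brain parenchyma. In the healthy brain they hold a characteristic set of genes at high levels, under the control of TGF-beta signalling and of lineage factors such as PU.1, and these genes are known to go down when microglia turn reactive around amyloid plaques. Among the members, 5 are receptors. Cx3cr1 is the receptor of the neuronal chemokine fractalkine, Gpr34 a G protein-coupled receptor for lysophosphatidylserine, Adgrg1 (GPR56) an adhesion G protein-coupled receptor, Siglech a lectin of the sialic acid-binding family that pairs with an ITAM adaptor, and Fcrls an Fc receptor-like scavenger receptor. Tmem119 is a transmembrane protein used as a microglia stain, Selplg (PSGL-1) is the ligand of P-selectin, and Slc2a5 (GLUT5) is a fructose transporter. Olfml3 and Sparc are secreted matrix-associated proteins.

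All members are protein-coding genes of the GENCODE M21 annotation of GRCm38. Tmem119 (chr5:113793729-113800516) and Selplg (chr5:113818536-113832644) lie next to each other on the minus strand with 18019 bases between them, and the remaining members are on other chromosomes or far apart: Cx3cr1 at chr9:119901616-120069879, Siglech at chr7:55768178-55778925, Fcrls at chr3:87250758-87263738, Olfml3 at chr3:103722222-103738001, Sparc at chr11:55394500-55423183, Slc2a5 at chr4:150119283-150144169, Gpr34 at chrX:13632089-13640858 and Adgrg1 at chr8:94974751-95014217. Only Cx3cr1 shares exon sequence with another annotated gene, 78 bases with the antisense gene Gm33858. Whether strand was used in the counting is not given in the sources used here, so reads of this stretch cannot be assigned to one gene or the other.

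Several facts of the libraries bear on the members. C3ar1 itself read 68.1, 39.9 and 65.7 in C3aRKO and between 61.9 and 80.4 in the double mutant, against 276, 330 and 340 in WT, in scaled values (the read count over the upper quartile of all counts in that library, times 35.2, which comes close to CPM and is not corrected for gene length). The libraries labelled WT C3aR+ read 71.0, 81.2 and 37.6, about the level of the knockouts, while the libraries labelled APP-KI C3aR+ read 383, 251 and 201, so the level of C3ar1 RNA goes against the C3aR+ label of the former, and every direction drawn from them rests on that label. Depth ran from 13939559 to 76608464 reads per library, and the members took between 2161 (Slc2a5) and 502036 (Cx3cr1) reads in a library, so counting error was small beside the spread between libraries. Thinned to 13000000 reads, 15 libraries had between 14543 and 16010 genes with a read. APP-KI replicate 4 (12559), C3aRKO replicates 1 (12083) and 2 (12320) and double mutant replicate 1 (11750) had fewer, and APP-KI replicate 5 had more (21078). The library numbers fall into 3 series, 22 for all C3aR+ libraries and 24 or 26 for the others, and the 4 libraries with few genes all belong to series 24. Microglial markers were present in all conditions: the sorting genes Ptprc, Itgam and Aif1 and all 24 further homeostatic genes were read in each, while the summed level of 7 neuronal markers stayed between 0.0679 and 22.9. Sums of 7 markers each were higher for astrocytes (212 to 403), oligodendrocytes (107 to 229), endothelial cells (54.6 to 352) and border macrophages (184 to 1205).

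In WT microglia not selected on C3aR, Cx3cr1 had the highest level per length (1405 scaled units per kilobase of exon), followed by Sparc (808), Tmem119 (787), Fcrls (769), Selplg (681), Gpr34 (423), Siglech (366), Olfml3 (264), Adgrg1 (231) and Slc2a5 (136). The spread over the 3 WT libraries was narrow for most members. Selplg read 3025, 2966 and 2740 there and Adgrg1 1279, 1277 and 1199. Across the 6 conditions, WT had the highest mean for 9 of the 10 members, the exception being Siglech, which was highest in C3aRKO. The lowest mean was that of APP-KI C3aR+ for Tmem119, Cx3cr1 and Adgrg1 and that of APP-KI for the other 7 genes. The highest mean exceeded the lowest 3.32-fold for Tmem119, 2.94-fold for Adgrg1 and 2.88-fold for Slc2a5, and no more than 2.02-fold for the others, down to 1.42-fold for Olfml3. With the conditions placed in the order of their means, most neighbours overlapped: libraries of neighbouring conditions were fully apart only between WT and WT C3aR+ for Tmem119, Cx3cr1 and Adgrg1 and between WT C3aR+ and APP-KI C3aR+ for Siglech. For the remaining 6 members no 2 neighbours in the order were apart.

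**Figure D1:**
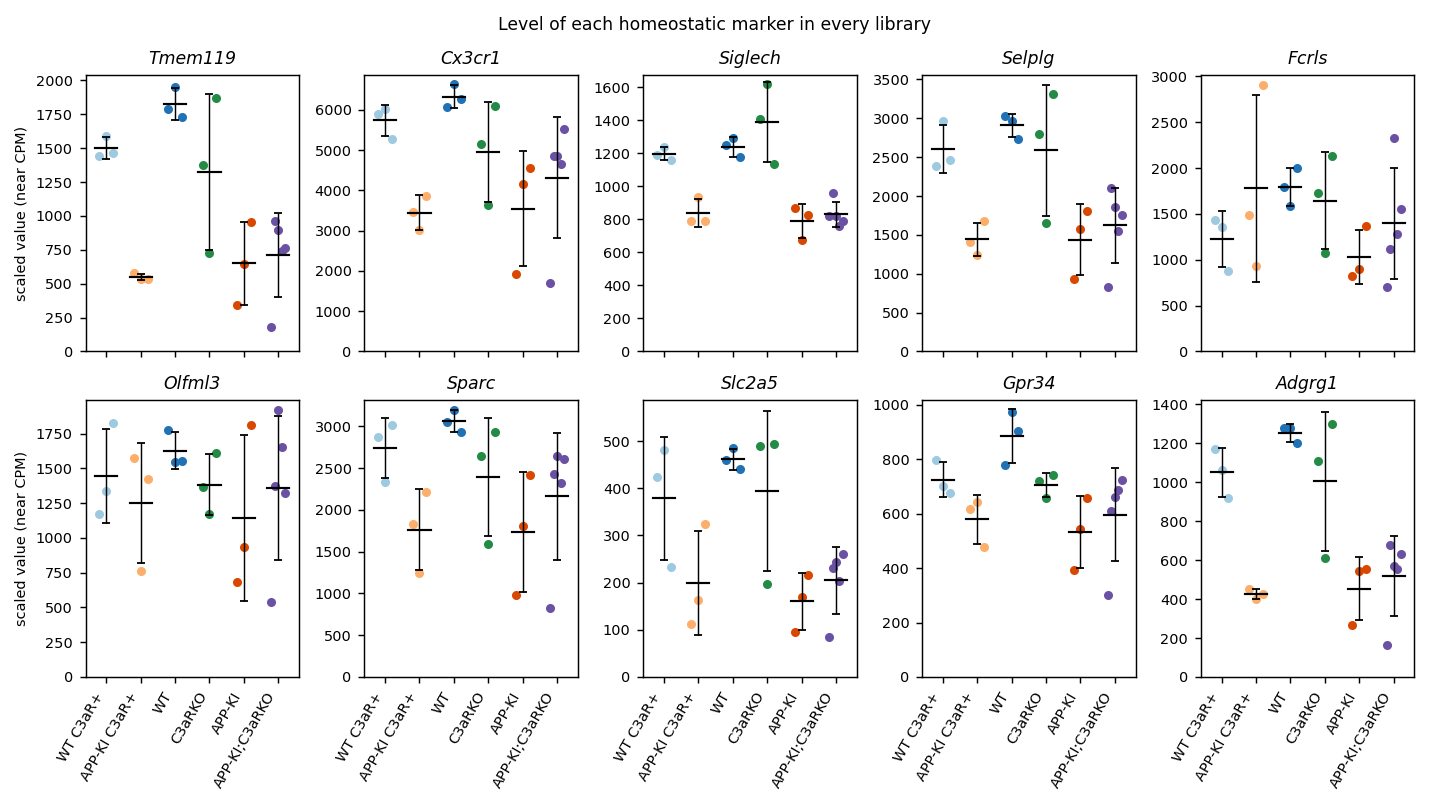
Scaled value (linear axis, close to CPM) of each of the 10 genes in all 20 libraries by condition, with 1 point per library and bars for the mean ± SD. APP-KI and WT libraries of Tmem119 and Adgrg1 do not overlap in either sort, those of Olfml3 overlap in both, and double mutant replicate 1 is the lowest point of its condition for every gene but Siglech.

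The sequences just upstream of these genes are shown beside their levels, although the members do not all follow 1 pattern over the conditions. Fcrls, for one, had a higher mean in APP-KI C3aR+ (1779) than in WT C3aR+ (1222). RefSeq entries for GRCm38.p6, from 250 bases before to 50 bases after a transcription start, matched 7 members, with 2 starts for Adgrg1. Tmem119, Selplg and Gpr34 had no entry. Both strands were searched for the letters GAGGAA (the core of PU.1 sites), TGTGGT (RUNX), TGAGTCA (AP-1) and CACGTG (E-box), none of which contains another. TGTGGT or its complement was in the windows of 5 of the 7 members (Cx3cr1, Siglech, Fcrls, Sparc and Slc2a5), against 16.8% of all 32851 windows of this length. GAGGAA was in 2 (Siglech and Fcrls) against 28.3%, TGAGTCA in 1 (Adgrg1, 2 matches at its downstream start) against 5.2%, and CACGTG in 1 (Siglech) against 7.15%. A match is a string of letters and not a measured binding site. The windows of Siglech (chr7:55767934-55768233, plus strand), whose level separated APP-KI from control genotypes most evenly, of Adgrg1 (chr8:94984149-94984448, plus strand), of Slc2a5 (chr4:150119094-150119393, plus strand) and of Cx3cr1 (chr9:120068247-120068546, minus strand) read as follows, with matches on either strand in capitals.
Siglech: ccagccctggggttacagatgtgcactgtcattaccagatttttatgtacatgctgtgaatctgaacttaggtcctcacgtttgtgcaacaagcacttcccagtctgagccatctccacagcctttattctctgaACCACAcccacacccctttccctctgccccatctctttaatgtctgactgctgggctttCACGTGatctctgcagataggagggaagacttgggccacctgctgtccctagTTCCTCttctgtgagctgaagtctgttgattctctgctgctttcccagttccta
Adgrg1: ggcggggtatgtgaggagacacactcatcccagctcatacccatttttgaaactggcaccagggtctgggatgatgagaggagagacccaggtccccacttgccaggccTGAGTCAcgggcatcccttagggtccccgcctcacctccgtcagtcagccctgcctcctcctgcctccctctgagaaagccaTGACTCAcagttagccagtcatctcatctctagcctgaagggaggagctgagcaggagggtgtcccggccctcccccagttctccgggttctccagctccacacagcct
Slc2a5: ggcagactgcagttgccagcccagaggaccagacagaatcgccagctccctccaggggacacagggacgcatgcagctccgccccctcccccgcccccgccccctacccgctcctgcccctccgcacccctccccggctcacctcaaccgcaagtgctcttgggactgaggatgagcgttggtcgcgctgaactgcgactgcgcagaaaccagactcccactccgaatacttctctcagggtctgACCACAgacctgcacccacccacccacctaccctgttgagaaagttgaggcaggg
Cx3cr1: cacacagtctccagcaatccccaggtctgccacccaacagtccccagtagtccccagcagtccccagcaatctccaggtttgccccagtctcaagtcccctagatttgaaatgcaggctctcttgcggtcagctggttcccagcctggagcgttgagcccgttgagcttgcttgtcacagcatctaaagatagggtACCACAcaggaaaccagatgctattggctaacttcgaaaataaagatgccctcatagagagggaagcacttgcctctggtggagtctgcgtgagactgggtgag

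The first comparison asks how the amyloid genotype changed these genes among microglia sorted as C3aR+, with the groups as labelled, although C3ar1 RNA stood at the knockout level in the libraries labelled WT C3aR+. Of the 10 members 5 were lower in APP-KI C3aR+ than in WT C3aR+ at an adjusted p under 0.05, and none was higher, where 9.70% of the 12315 genes tested were called lower. The 5 were Tmem119, Adgrg1, Selplg, Cx3cr1 and Siglech. The median log2 fold change of the members was -0.70, against -0.17 over all genes tested.

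Tmem119 changed most. It read 577, 538 and 533 in APP-KI C3aR+ and 1439, 1590 and 1466 in WT C3aR+, so the highest APP-KI library lay far below the lowest WT library. The log2 fold change was -1.45 (SE 0.12, adjusted p = 6.4e-05), or 0.367 of the WT level. Adgrg1, the adhesion receptor, behaved much like it, at 452, 401 and 425 against 1169, 1061 and 921, with a log2 fold change of -1.29 (SE 0.13, adjusted p = 0.00019). The replicates of both genes were tightly grouped within APP-KI C3aR+, with an SD of 24.4 for Tmem119 and 25.5 for Adgrg1.

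Selplg, the neighbour of Tmem119 on chromosome 5, read 1407, 1245 and 1673 against 2390, 2964 and 2459, a log2 fold change of -0.86 (SE 0.17, adjusted p = 0.0060). Cx3cr1 read 3471, 3015 and 3868 against 5894, 6034 and 5290, a log2 fold change of -0.74 (SE 0.19, adjusted p = 0.021). Siglech read 789, 933 and 789 against 1189, 1239 and 1161, a log2 fold change of -0.52 (SE 0.13, adjusted p = 0.016). The groups did not overlap for any of these receptors and ligands, but the calls of Cx3cr1 and Siglech were narrow. Leaving out any one library other than APP-KI C3aR+ replicate 3 ended the call of Cx3cr1 (adjusted p from 0.0535 to 0.0865), and leaving out WT C3aR+ replicate 2 or 3 did so for Siglech (adjusted p = 0.065 and 0.051).

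The other 5 members did not pass the test. Sparc read 1833, 1250 and 2214 against 2869, 2331 and 3016, without overlap (log2 fold change -0.66, adjusted p = 0.056). Slc2a5 read 112, 163 and 323 against 424, 481 and 232 (log2 fold change -0.997, adjusted p = 0.078), so that one library of each group stood within the range of the other. Without APP-KI C3aR+ replicate 3 both genes passed, Sparc with an adjusted p of 0.017 and Slc2a5 with one of 0.012, and Slc2a5 passed also without WT C3aR+ replicate 3 (adjusted p = 0.041). Gpr34 ran from 478 to 642 against 676 to 797, again without overlap, with a log2 fold change of -0.33 (adjusted p = 0.12). In all, 7 members were lower in every APP-KI C3aR+ library than in every WT C3aR+ library, where 25.7% of all genes tested were.

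Fcrls and Olfml3 stood apart from the rest. Fcrls was the one member with a higher mean in APP-KI C3aR+, at 1493, 933 and 2911 against 1439, 1355 and 873, with an SD of 1020 in APP-KI C3aR+ (log2 fold change 0.42, 95% interval -0.39 to 1.22, adjusted p = 0.42). Its sign rested on replicate 3, without which the log2 fold change was -0.02. Olfml3 read 1572, 759.9 and 1420 against 1172, 1339 and 1826 (log2 fold change -0.25, 95% interval -0.86 to 0.35), and was 0.07 without APP-KI C3aR+ replicate 2.

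Marker lists moved with the APP-KI genotype in these libraries. The summed level of 16 reactive microglia genes found of 17 listed was between 10487 and 12288 in WT C3aR+ and between 45886 and 70766 in APP-KI C3aR+. That of 5 markers of oligodendrocyte precursors was 11.9 to 21 against 105 to 286, that of 7 endothelial markers 62.3 to 122 against 195 to 352, and that of 7 border macrophage markers 484 to 713 against 184 to 414, with none of these markers at 0 throughout a group. Markers of astrocytes (302 to 403 in WT C3aR+, 223 to 280.4 in APP-KI C3aR+) were lower, and those of oligodendrocytes (140 to 187 against 194 to 213) and of plasmacytoid dendritic and B cells (29.9 to 34.5 against 40.0 to 44.3) higher. Those of mural cells (16.8 to 58.3 against 18.0 to 43.1), of monocytes and neutrophils (40.1 to 219 against 43.7 to 122), of T and NK cells (0.0488 to 5.69 against 0 to 1.78) and the genes induced by warm dissociation (3486 to 5003 against 3068 to 4134) overlapped. The part of these lists in the members' differences was not tested. In bulk RNA, fewer cells of a type and less RNA per cell cannot be told apart.

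In microglia not selected on C3aR the members had differences of like size and wider errors. The 14 libraries were fitted together, with the library number series as a term. All 10 members had a lower mean in APP-KI than in WT, with a median log2 fold change of -0.73 against -0.01 over all genes tested, but only Siglech and Slc2a5 passed the test, 2 of 10 members where 1.93% of the 12409 genes were called lower. In 9 members, all but Olfml3, every APP-KI library lay below every WT library, as it did in 16.4% of all genes tested.

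Siglech read 869, 676 and 824 in APP-KI and 1247, 1290 and 1175 in WT (log2 fold change -0.70, SE 0.17, adjusted p = 0.033). The fructose transporter Slc2a5 read 95.4, 169.8 and 216 against 459, 485 and 440.3, at 0.378 of the WT level, with a log2 fold change of -1.40 (SE 0.37, adjusted p = 0.048). Both groups were apart for both genes. Neither call was firm, since leaving out any one of the 6 libraries ended that of Slc2a5 (adjusted p from 0.054 to 0.38, the highest without WT replicate 4, the only WT library of series 24), and leaving out any but APP-KI replicate 4 ended that of Siglech (adjusted p from 0.071 to 0.16).

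Tmem119 and Adgrg1 had log2 fold changes close to those in the C3aR+ sort and did not pass. Tmem119 read 345, 648 and 953 in APP-KI against 1786, 1954 and 1726 in WT (log2 fold change -1.35, 95% interval -2.37 to -0.34, adjusted p = 0.17). Adgrg1 read 266, 543 and 553 against 1279, 1277 and 1199 (log2 fold change -1.36, 95% interval -2.26 to -0.45, adjusted p = 0.11). For both genes the WT libraries were close together and APP-KI replicate 4 was the lowest of its group. Its margin was wide in Adgrg1, while the APP-KI values of Tmem119 were about evenly spaced. Selplg read 937, 1573 and 1812 against 3025, 2966 and 2740 (log2 fold change -0.94, adjusted p = 0.18). Cx3cr1 read 1913, 4150 and 4566 against 6075, 6634 and 6284 (log2 fold change -0.75, adjusted p = 0.52).

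Of the remaining members, Fcrls, unlike in the C3aR+ sort, lay lower in all 3 APP-KI libraries, at 820.0, 895 and 1364 against 1792, 1589 and 2004 (log2 fold change -0.63, adjusted p = 0.38). The log2 fold changes were -0.71 for Sparc, -0.61 for Gpr34 and -0.42 for Olfml3, with adjusted p-values of 0.505, 0.235 and 0.790. Within series 24 (2 APP-KI libraries, 1 WT) all 10 members were lower in APP-KI, with a median difference of -1.18 on the log2 scale. Within series 26 (1 APP-KI library, 2 WT) 9 were, all but Olfml3, with a median of -0.54. The marker lists of reactive genes (12078 to 16330 in WT, 24468 to 64845 in APP-KI), oligodendrocyte precursors (4.37 to 8.93 against 139 to 167) and endothelial cells (72.4 to 85.9 against 219 to 285) were again higher, and that of border macrophages (451 to 1205 against 269 to 291) lower. Of the other lists, only T and NK cells were apart between the groups (0.82 to 1.53 in WT, 2.65 to 52.1 in APP-KI). The part of these lists was not tested.

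**Figure D2:**
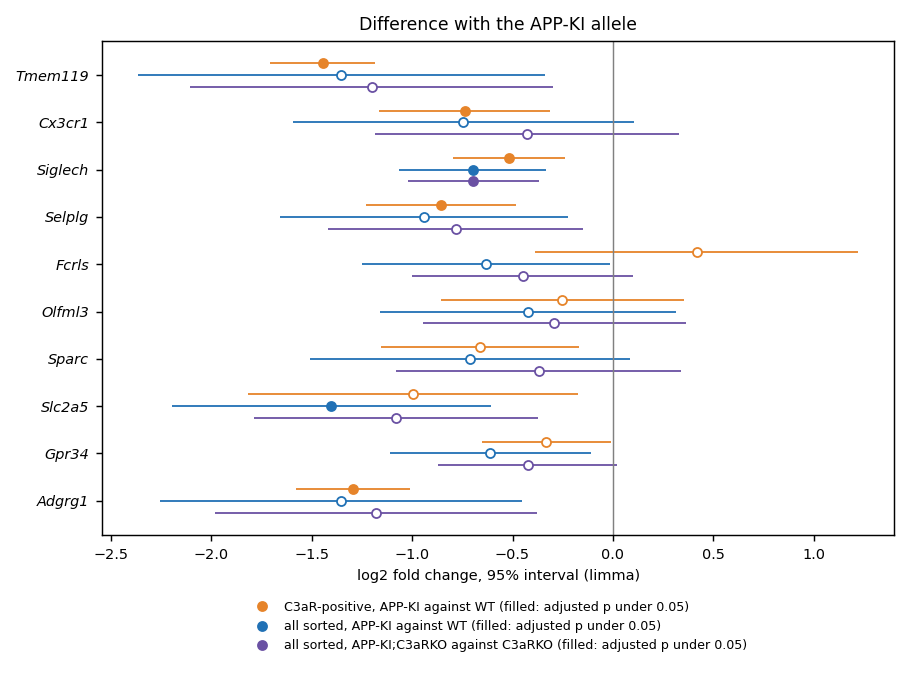
Log2 fold change with the APP-KI allele for each of the 10 genes (points, filled where the adjusted p was under 0.05, with 95% intervals from limma) in C3aR+ microglia, in microglia not selected on C3aR and in mice lacking C3ar1. In 29 of the 30 estimates the point lies below 0, the exception being Fcrls in C3aR+ microglia at 0.42, and Tmem119, Adgrg1 and Slc2a5 lie farthest to the left in each comparison.

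Much of the spread among the 14 libraries came with the 4 libraries in which few genes were read. Set against the other libraries of their own condition, these were lower in 9 of the members without exception. This set 1 library against 2 in APP-KI, 2 against 1 in C3aRKO and 1 against 4 in the double mutant. In C3aRKO the 2 are of series 24 and the other of series 26, so few genes and series cannot be told apart there. The difference in Tmem119 was -1.19 on the log2 scale in APP-KI, -0.91 in C3aRKO and -2.21 in the double mutant, and in Cx3cr1 it was -1.19, -0.50 and -1.55. Siglech was the exception, at 0.22, 0.41 and -0.01. In C3aRKO replicate 2 Siglech had its highest reading of any library (1617) while Tmem119 (726), Slc2a5 (198) and Adgrg1 (609) lay below the other C3aRKO libraries. In double mutant replicate 1 all members were below the WT mean, from -0.59 for Siglech to -3.33 for Tmem119. APP-KI replicate 4 and double mutant replicate 1, with the lowest means over the members, also had the highest summed levels of the genes induced by warm dissociation (7022 and 6075), where no other library was above 5003 and C3aRKO replicates 1 and 2 were at 3526 and 3806. Its part in the result was not tested.

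**Figure D3:**
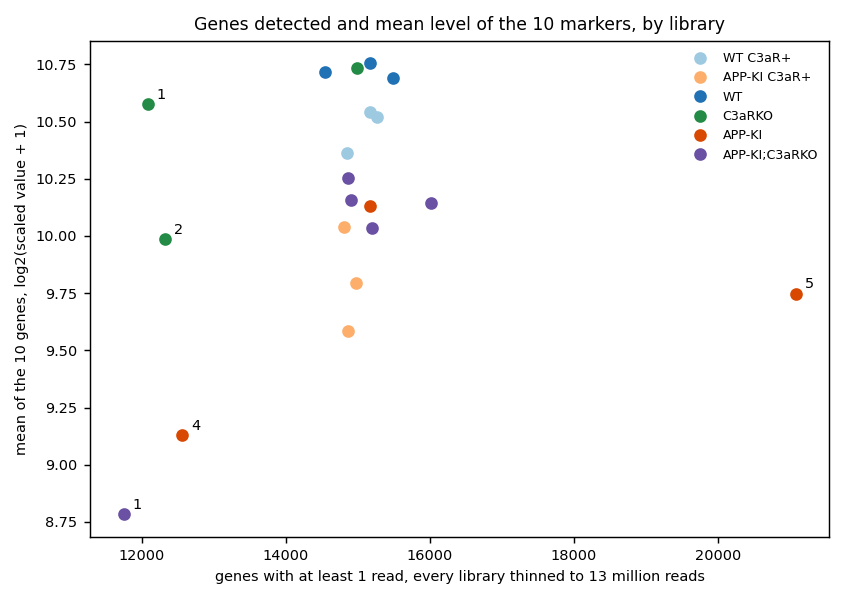
Mean of log2(scaled value + 1) over the 10 genes (vertical axis) against the number of genes with at least 1 read after thinning to 13000000 reads (horizontal axis), with 1 point per library coloured by condition and replicate numbers beside the libraries with the fewest and the most genes. APP-KI replicate 4 and double mutant replicate 1 combine few genes with the lowest means (9.13 and 8.78), while C3aRKO replicate 1 has few genes and a mean of 10.6.

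Without those 4 libraries, an alternative chosen after the data were seen, the standard errors in APP-KI against WT were smaller for all 10 members, while Cx3cr1 moved from -0.75 to -0.53 and Olfml3 from -0.42 to -0.27. There 8 members passed the test, where 14.7% of the 12566 genes tested were called lower. APP-KI was then 2 libraries, including replicate 5, the library with the most genes read after thinning (21078). Replicate 5 also had the highest sums of neuronal (22.9) and of T and NK cell (52.1) markers of any library. The log2 fold changes were -1.20 for Tmem119 (SE 0.17, adjusted p = 0.0011) and -1.20 for Adgrg1 (SE 0.09, adjusted p = 3.5e-05). Slc2a5, at -1.25 (SE 0.12, adjusted p = 0.00012), was the member with the largest change, and Selplg, Siglech, Sparc, Cx3cr1 and Gpr34 had values between -0.80 and -0.52. Fcrls (-0.63, adjusted p = 0.097) and Olfml3 (-0.27, adjusted p = 0.43) did not pass. Within series 26 alone 6 members passed, Sparc and Cx3cr1 falling short, with 9.75% of genes called lower, but APP-KI is there 1 library, whose spread was taken to be that of the other groups.

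**Figure D4:**
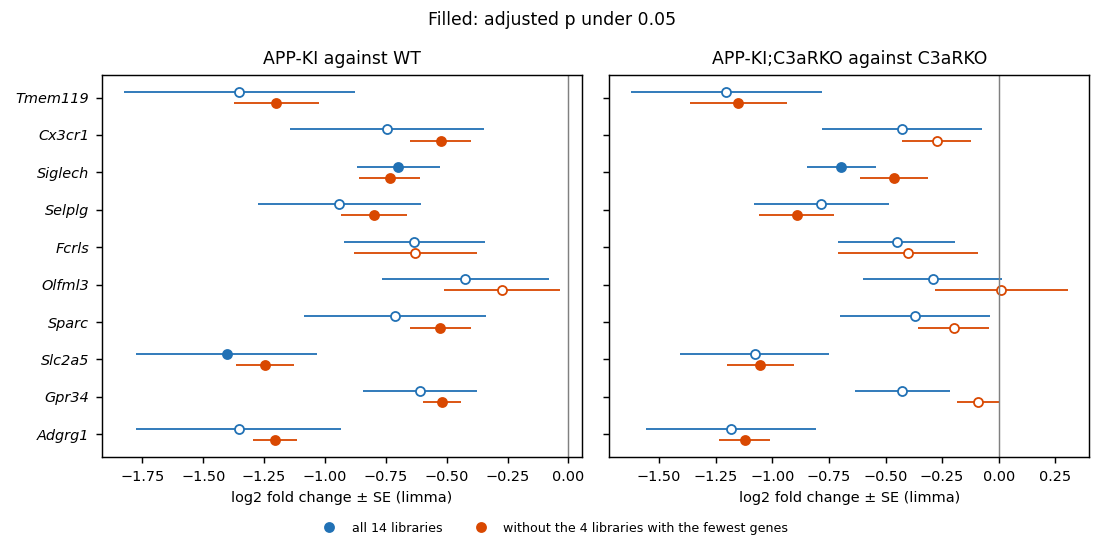
Log2 fold change ± SE (limma) of each of the 10 genes in APP-KI against WT (left) and in the double mutant against C3aRKO (right), with all 14 libraries and without the 4 libraries with the fewest genes, filled where the adjusted p was under 0.05. Without those libraries the error bars are shorter for most genes and 8 and 5 points are filled, in place of 2 and 1.

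The APP-KI allele was also compared in mice that lack C3ar1, as double mutant against C3aRKO. All 10 members again had a lower fitted level, with a median log2 fold change of -0.57 against -0.03 over all genes tested. Only Siglech passed the test, 1 of 10 members where 2.97% of the 12409 genes were called lower, and it was also the one member whose groups did not overlap, as was so for 7.34% of all genes tested. Siglech read 820.3, 958, 822, 759 and 788 in the double mutant and 1408, 1617 and 1134 in C3aRKO (log2 fold change -0.69, SE 0.15, adjusted p = 0.012). Its double mutant values were the most even of all members, replicate 1 included.

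For the other members C3aRKO replicate 2 or double mutant replicate 1 widened the groups. Tmem119 read 179.9, 965, 893, 744 and 761 against 1372, 726 and 1873 (log2 fold change -1.20, adjusted p = 0.11). Adgrg1 read 163, 676, 571, 554 and 631 against 1109, 609 and 1299 (log2 fold change -1.18, adjusted p = 0.078). Slc2a5 read 84.3, 232, 243, 204 and 260.1 against 488, 198 and 494 (log2 fold change -1.08, adjusted p = 0.067). In each, C3aRKO replicate 2 lay inside the range of the double mutant. Without double mutant replicate 2 these genes and Selplg passed as well, 5 members in all, with adjusted p-values of 0.018 for Tmem119, 0.020 for Adgrg1, 0.030 for Slc2a5 and 0.046 for Selplg, and without C3aRKO replicate 2 Slc2a5 did (0.028).

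Without the 4 libraries with few genes 5 members passed, with log2 fold changes of -1.15 for Tmem119, -1.12 for Adgrg1, -1.05 for Slc2a5, -0.89 for Selplg and -0.46 for Siglech (adjusted p from 0.00019 to 0.047), where 18.2% of genes were called lower. C3aRKO was then represented by replicate 3 alone, whose spread was taken to be that of the other groups. Gpr34 was -0.09 and Olfml3 0.01 in that fit, against -0.43 and -0.29 with all libraries. Series 26 alone, again with 1 C3aRKO library, also gave 5 members, with 23.6% of genes called lower. The marker lists of reactive genes (18711 to 70399 in the double mutant, 7664 to 12997 in C3aRKO), oligodendrocyte precursors (139 to 206 against 9.64 to 22.4) and endothelial cells (111 to 291 against 54.6 to 102) were higher, and those of border macrophages (199.99 to 361 against 396 to 604) and astrocytes (218 to 345 against 353 to 390.3) lower. The other lists overlapped, and the part of these lists was not tested.

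Loss of C3ar1 by itself left no member past the test. In C3aRKO against WT the log2 fold changes ran from -0.31 for Tmem119 to 0.11 for Siglech, with a median of -0.16 against -0.03 over all genes tested, and in limma, edgeR and DESeq2 alike 0 of 10 members passed, with 0 at an unadjusted p under 0.05, where 0.00806% of genes were called in either direction. Errors were wide. Tmem119 read 1372, 726 and 1873 in C3aRKO against 1786, 1954 and 1726 in WT, with a 95% interval of -1.32 to 0.70. For Siglech, the best measured member, the interval was -0.26 to 0.47. Gpr34 was the one member with groups apart, at 719.7, 657 and 743 against 778, 974 and 903 (log2 fold change -0.17, 95% interval -0.67 to 0.33), and 9.31% of all genes tested were likewise lower without overlap. Within series 24 the members' median difference was -0.49, and within series 26 it was 0.04. Without the 4 libraries with few genes C3aRKO was replicate 3 alone, and the log2 fold changes ran from -0.32 for Gpr34 to 0.22 for Selplg.

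Loss of C3ar1 on the APP-KI background left no member past the test either. In the double mutant against APP-KI the log2 fold changes lay between -0.16 for Tmem119 and 0.21 for Fcrls, with a median of 0.10, and the groups overlapped for all 10 members. That median depended on single libraries, at -0.11 without APP-KI replicate 4, -0.10 without double mutant replicate 2, 0.40 without double mutant replicate 1 and about 0.21 without APP-KI replicate 5 or 6. None passed limma, edgeR or DESeq2, 0 had an unadjusted p under 0.05, and 0.00806% of genes were called in either direction. The 95% intervals were -1.06 to 0.74 for Tmem119, -0.83 to 0.77 for Adgrg1, -0.63 to 0.88 for Cx3cr1 and -0.22 to 0.44 for Siglech. For Tmem119, Adgrg1, Siglech, Selplg, Slc2a5 and Gpr34 the upper bound was smaller than the size of the APP-KI difference from WT above. For Cx3cr1, Fcrls, Olfml3 and Sparc it was larger. The APP-KI difference has its own wide interval (-2.37 to -0.34 for Tmem119), and both comparisons use the same APP-KI libraries. Nothing is therefore concluded from these bounds. Without the 4 libraries with few genes the members' median was 0.17, with a range of 0.08 to 0.35 and none past the test.

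Whether the APP-KI difference itself depended on C3ar1 was tested as the difference of the APP-KI effects, without minus with the receptor gene. The 10 values ran from 0.00 for Siglech to 0.34 for Sparc, with a median of 0.18 against -0.01 over all genes tested, and none passed limma, edgeR or DESeq2 or had an unadjusted p under 0.05, with 0% of genes called. The interval for Siglech was -0.50 to 0.51, and that for Tmem119 -1.24 to 1.54. Without the 4 libraries with few genes, where C3aRKO was replicate 3 alone, the values ran from -0.09 for Selplg to 0.43 for Gpr34. A dependence on C3ar1 was thus not detectable at this spread, and sizeable ones remain within the intervals.

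**Figure D5:**
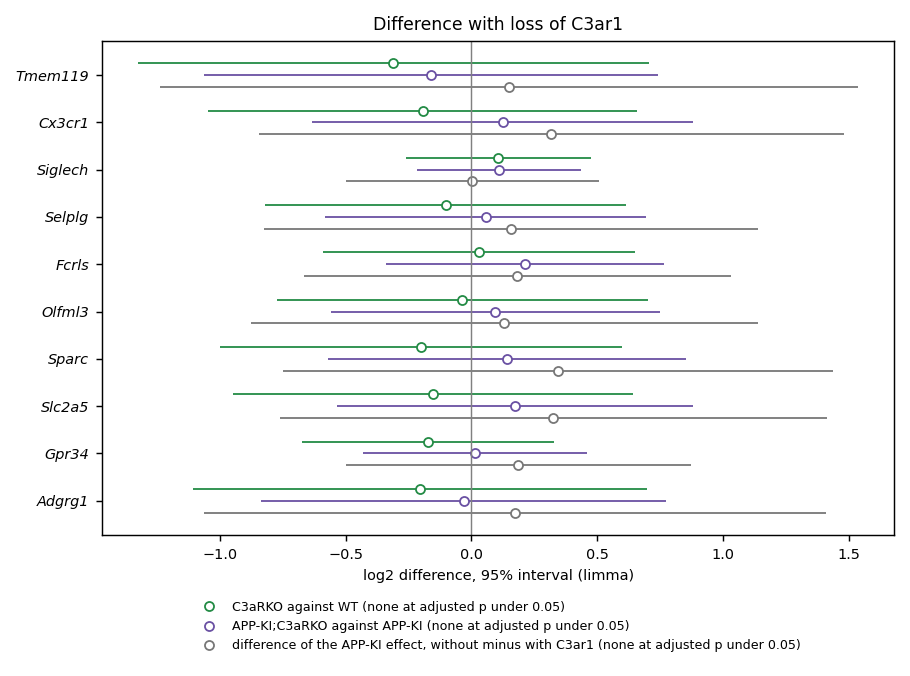
Log2 differences with 95% intervals (limma) for each of the 10 genes upon loss of C3ar1 in C3aRKO against WT and in the double mutant against APP-KI, and the difference between the APP-KI effects without and with C3ar1. All 30 intervals include 0, and those of Siglech are the narrowest.

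The sort was compared within genotype, and it cannot be told apart from the library number series or from the reporter allele, since all C3aR+ libraries are of series 22 and from reporter mice. The libraries labelled WT C3aR+ are again those with C3ar1 RNA at the knockout level. In WT all 10 members had a lower mean in the C3aR+ libraries, with log2 differences from -0.58 for Fcrls to -0.05 for Siglech and a median of -0.22 against -0.02 over all genes. In APP-KI they ran from -0.12 for Tmem119 to 0.67 for Fcrls, with a median of 0.08. None passed limma, edgeR or DESeq2 in either genotype, none had an unadjusted p under 0.05, and 0% of the 12592 genes tested were called. Without APP-KI replicate 4 the median in APP-KI was -0.18. In WT 4 members were apart, Tmem119, Cx3cr1, Fcrls and Adgrg1, each lower in the C3aR+ libraries, as were 13.2% of all genes tested.

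The APP-KI effect did not differ between the sorts by the test. The difference, C3aR+ minus not selected, was positive for all 10 members and ran from 0.14 for Siglech to 1.25 for Fcrls, with a median of 0.25. Fcrls alone had an unadjusted p under 0.05 (0.025, adjusted p = 0.40, 95% interval 0.18 to 2.32), and none passed limma, edgeR or DESeq2, with 0% of genes called. Its values show the contrast: in C3aR+ microglia APP-KI replicate 3 at 2911 was the highest of the 20 libraries, and in microglia not selected on C3aR all APP-KI libraries were below all WT libraries. Without APP-KI replicate 4 the members' median difference was -0.0040.

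A further 24 genes of homeostatic microglia were kept apart from the 10 members. This list too was chosen with earlier results of these data known. In C3aR+ microglia 13 of the 24 were lower and 1 higher in APP-KI at an adjusted p under 0.05, with a median of -0.52. Over all genes tested the share called lower was 9.70% and the median -0.17. The higher gene of the 24 was Irf8, a transcription factor of the myeloid lineage (0.62, adjusted p = 0.0044). Among the genes that passed, the changes were largest in Crybb1, a crystallin abundant in microglia (-1.77, adjusted p = 6.8e-05), the ADP receptor P2ry12 (-1.04, adjusted p = 0.0010), the leukotriene C4 synthase gene Ltc4s (-0.81, adjusted p = 0.0072) and P2ry13 (-0.78, adjusted p = 0.0091). In microglia not selected on C3aR 7 were lower and 0 higher, with a median of -0.70. Over all genes tested the share called lower was 1.93% and the median -0.01. The 7 were led by Crybb1 (-1.68), the organic anion transporter gene Slco2b1 (-0.97), the microglial transcription factor Sall1 (-0.94) and the sialic acid-binding lectin Cd33 (-0.84). In the double mutant against C3aRKO 4 were lower, Crybb1 (-1.97), Upk1b (-1.34), Slco2b1 (-0.77) and Bin1 (-0.70), where 2.97% of all genes tested were called lower. None of the 24 passed in limma in the comparisons that removed C3ar1 or that set the sorts against each other.

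The mean profile of the 10 members over the 6 conditions, as centred log2 means, was 0.31 in WT C3aR+, 0.56 in WT, 0.27 in C3aRKO, -0.36 in APP-KI C3aR+, -0.49 in APP-KI and -0.29 in the double mutant. Selplg (mean absolute distance 0.05), Cx3cr1 (0.08) and Sparc (0.09) were the members closest to it, while Tmem119 (0.30), Adgrg1 (0.26) and Fcrls (0.26) were farthest. Tmem119 and Adgrg1 had the sign of the profile in all 6 conditions and differed by larger values. Fcrls had the opposite sign in both C3aR+ conditions, at -0.21 in WT C3aR+ and 0.21 in APP-KI C3aR+. Among the 8820 genes outside both lists whose scaled values averaged 10 or more, the 5 genes nearest the profile were Calcrl, a receptor of calcitonin-family peptides (0.02), Marcks, a substrate of protein kinase C (0.02), Ehd1, an endocytic recycling protein (0.03), Slc25a45, a mitochondrial carrier family gene (0.03), and Pld4, a lysosomal member of the phospholipase D family (0.04), where the median gene had a distance of 0.35. The likeness is over 6 condition means only.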

How the data were processed

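The authors sequenced SMARTer Pico v3 libraries of sorted microglia on an Illumina NovaSeq. Per the labels, the submitters' processing notes name cutadapt, TopHat2, featureCounts and DESeq2 and the mm10 build, and whether the kit's molecular identifiers were used is not given in the sources used here. The deposited values, named FPKM by the authors, behave as a signal: read counts per gene were scaled to the upper quartile of their library, and gene length was left out. Whole reads (within 0.1 read) were recovered for 100% of values in all 20 libraries. They are exact counts up to the authors' alignment and counting, which were not repeated.

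The signal was multiplied by 35.2, and 1 read was then worth 0.0132 to 0.0786. In each fit, genes whose scaled values averaged 1 or more entered limma 3.58.1 (R 4.3.3) as log2(scaled value + 1), with a trend of the variance on the mean, and p-values of all of them were adjusted together (Benjamini-Hochberg). The threshold was an adjusted p under 0.05. Fold changes are on that scale. The C3aR+ libraries were fitted alone, the 14 others together with the library number series as a term, and the sorts in the 12 WT and APP-KI libraries without one. The scripts' fits were tested on simulated data.

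Groups came from the sample titles, and no sample was left out. The members and all gene lists were chosen with earlier results of these data known. All members were named in each comparison, with the 4 most changed called genes of the further homeostatic list and the 5 genes nearest the members' mean profile. Replicates of a condition differed by far more than counting noise (chi-square per degree of freedom 21.6 to 967). Alternatives were other thresholds, pseudocounts, filters and scalings, limma without a trend, edgeR 4.0.16 and DESeq2 1.42.0 on the recovered reads, other designs, and each library left out. Leaving out the 4 libraries with fewest genes (under 13000 at 13000000 reads) and fitting series 26 alone were added after the data were seen. Marker lists of astrocytes, oligodendrocytes, mural cells, monocytes and neutrophils, T and NK cells, plasmacytoid dendritic and B cells, and of genes induced by warm dissociation were summed per library, beside those of neurons, oligodendrocyte precursors, endothelial cells, border macrophages and reactive microglia.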

Additional observations from a re-analysis of the deposited data

Results flagged for a closer look

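In the double mutant, the only condition with more than 3 libraries, 6 of the 10 genes had 1 library far from the other 4. It was replicate 1 each time, and it was low. It read 179.9 for Tmem119, 1692 for Cx3cr1, 827.3 for Sparc, 84.29 for Slc2a5, 300.1 for Gpr34 and 163.3 for Adgrg1. On the log2 scale its gap to the next library was more than 0.710 of the whole range in each of them. Chance flags about 1 in 20 groups, and the 6 flags are not independent, since they fall on 1 library. This library also had the fewest genes with a read after thinning (11750). In Siglech it lay among the others (820.3).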

How the results depend on the processing

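In APP-KI C3aR+ against WT C3aR+, where 5 members passed, 2 passed at an adjusted p under 0.0005 and 3 under median ratio scaling, and leaving out 1 library gave 3 to 7 (3 without WT C3aR+ replicate 2, 7 without APP-KI C3aR+ replicate 3). In APP-KI against WT without selection on C3aR, where 2 passed, 0 passed at an adjusted p under 0.0005, without the filter, under quantile normalization, without a trend, with the replicate block, without the series term and with only these 2 groups fitted. There 1 passed with a pseudocount of 0.1, under median ratio scaling and in edgeR, 8 without the 4 libraries with the fewest genes, 6 in series 26 alone, and 0 to 1 with 1 library left out. In the double mutant against C3aRKO, where 1 passed, 0 passed at an adjusted p under 0.0005, with the replicate block and with only these 2 groups fitted, 2 under quantile normalization and in DESeq2, 5 without the 4 libraries and 5 in series 26 alone, and 1 to 5 with 1 library left out (2 without C3aRKO replicate 2, 5 without double mutant replicate 2). Signs reversed only in genes that did not pass. Olfml3 in APP-KI against WT was 0.23 in series 26 alone, and in the double mutant against C3aRKO it was 0.0111 without the 4 libraries and 0.0019 in series 26 alone. With 1 library left out it ran from -0.473 to 0.0143 in the latter comparison (highest without double mutant replicate 1) and from -0.451 to 0.0727 in C3aR+ microglia (highest without APP-KI C3aR+ replicate 2), where Fcrls ran from -0.0163 (without APP-KI C3aR+ replicate 3) to 0.804. Fewer residual libraries or genes enter some of these fits by construction, and otherwise the cause was not tested.

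The replicate numbers were taken as a name only. The correlations across genes of same-numbered libraries' deviations were 0.02, 0.04 and -0.01 in C3aR+ microglia, 0.25, 0.09 and 0.11 between WT and APP-KI, and 0.00078, 0.07 and 0.22 between C3aRKO and the double mutant. With the replicate block 5 members passed in C3aR+ microglia, Cx3cr1 falling out (adjusted p = 0.0752) and Sparc coming in (adjusted p = 0.0494). In the double mutant against APP-KI the block moved the members' median from 0.10 to 0.572, with none past the test. No block could be fitted for C3aR+ against unselected microglia within a genotype, since the replicate numbers of the sorts do not repeat. The difference of the APP-KI effects between the sorts was also fitted with a block.

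The limits include the number of libraries, 3 in most conditions, and the 4 libraries with few genes, which all fall in APP-KI, C3aRKO and the double mutant. Others are the knockout-level C3ar1 RNA in the libraries labelled WT C3aR+ and the gene lists, chosen with earlier results of these data known. The C3aR+ sort also cannot be told apart from the library number series or the reporter allele. Depth is not a limit for these abundant genes.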
